A study of Mus musculus with 3 samples.

Results

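Crlf2, Il7r, Il2ra, Stat5a, Stat5b, Cish, Socs1, Socs2, Socs3 and Pim1 were taken as the receptor of thymic stromal lymphopoietin (TSLP) and the genes of the STAT5 response, by name, and all 10 were found among the 22548 genes measured. They were read in single dendritic cells of the ear-draining lymph node of mice given MC903 on days 0, 2 and 4 and collected on day 5; this analogue of vitamin D is used to raise TSLP in skin. Every mouse carried the same alleles, SiglechiCre Tg/0, ROSA26 LoxP-STOP-LoxP-RFP and Tnfsf4 KI/+, so that red fluorescence (RFP) marks cells in which Cre driven by Siglech has acted at some time and blue fluorescence (BFP) marks activity of 1 copy of Tnfsf4, the gene of OX40L. The gate kept cells without B220, XCR1 and CD326, with high MHC class II and low to intermediate CD11c. Within it 4 populations were sorted, each given its own hashtag antibody: double-positive (BFP+RFP+), only red (BFP-RFP+), only blue (BFP+RFP-) and double-negative (BFP-RFP-). Where 4 values are given for the populations, they stand in that order. About 5200 cells of each were pooled, and 10400 of BFP+RFP-, into 1 capture, with antibody tags against CD8a, CD11b, CD301b and CD172a as well. No mice without MC903 were among the samples, so a response to MC903 or to TSLP was not measured.

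TSLP is an epithelial cytokine that acts on dendritic cells through a receptor made of Crlf2, its own chain, and Il7r, the chain it shares with IL-7. The receptor works through JAK kinases and STAT5, which enters the nucleus and binds DNA at short palindromes. Cish and the Socs genes are feedback inhibitors induced by STAT proteins, Pim1 is a survival kinase induced by the same signals, and Il2ra, the alpha chain of the IL-2 receptor, is a STAT5 target known from T cells and also present on activated dendritic cells.

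The promoters are shown first for the 3 of these genes that hold the STAT5-type palindrome TTCNNNGAA, where N is any base, because much of what follows turns on Cish, Socs3 and Il7r. Sequences are the RefSeq windows on GRCm38.p6 from 250 bases before to 50 bases after the start of transcription, written 5′ to 3′ on the strand of the gene with the palindrome in capitals. The window of Cish, chr9:107296409-107296708 on the plus strand, held TTCCTGGAA at bases +1 to +9 and TTCTTGGAA at +12 to +20. The window of Socs3, chr11:117969317-117969616 on the minus strand, held TTCTTAGAA at -154 to -146. The window of Il7r, chr15:9529827-9530126 on the minus strand, held TTCAGGGAA at -142 to -134.
Cish: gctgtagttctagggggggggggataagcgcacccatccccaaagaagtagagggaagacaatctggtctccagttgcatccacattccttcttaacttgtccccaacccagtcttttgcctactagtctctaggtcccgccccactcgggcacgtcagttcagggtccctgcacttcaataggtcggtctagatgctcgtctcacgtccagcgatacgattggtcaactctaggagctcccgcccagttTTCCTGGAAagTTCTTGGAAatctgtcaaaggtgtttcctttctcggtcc
Socs3: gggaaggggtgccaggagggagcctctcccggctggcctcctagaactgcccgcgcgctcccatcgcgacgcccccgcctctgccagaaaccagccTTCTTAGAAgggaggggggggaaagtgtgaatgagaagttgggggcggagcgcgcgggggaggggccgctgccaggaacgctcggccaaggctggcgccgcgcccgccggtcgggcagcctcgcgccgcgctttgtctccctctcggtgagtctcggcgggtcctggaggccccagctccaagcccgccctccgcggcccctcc
Il7r: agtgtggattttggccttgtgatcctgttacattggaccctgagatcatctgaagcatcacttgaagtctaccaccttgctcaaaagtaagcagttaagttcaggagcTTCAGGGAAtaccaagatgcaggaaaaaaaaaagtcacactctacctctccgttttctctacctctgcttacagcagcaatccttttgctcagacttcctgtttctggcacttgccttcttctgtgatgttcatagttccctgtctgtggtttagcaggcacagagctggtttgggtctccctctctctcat
The palindrome reads the same on either strand, and matches did not overlap. Windows were found for 9 of the 10 genes, 12 windows in all; Socs2 had none. Of 32851 windows of 300 bases in the mouse table, 8.30% held 1 match or more and 0.457% held 2 or more, as that of Cish did. A match is a run of letters and does not show that STAT5 binds there.

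The deposited matrix held 6079 barcodes. Cells were kept with 1 hashtag at 80% or more of the hashtag counts, 1000 or more mRNA UMIs (unique molecular identifiers, each counting 1 captured molecule) and at most 10% of them mitochondrial. This left 5023 cells, 842 to 2185 per population, with 14140272 to 35590897 mRNA UMIs in all and medians of 13884 to 15182 per cell. Cells were clustered without these 10 genes, the other pathway genes, Tnfsf4, Siglech and the reporters. In 6 clusters with 4500 cells, numbered 1 to 6, each of 9 markers of migratory dendritic cells was found in 80% or more of the cells, and none of the 6 had many markers of T and NK cells, B cells or macrophages; the other 523 cells lay in clusters 7 to 11. Markers of other cells differed between populations: summed levels ran from 102 to 339 CPM (UMIs per 1000000 mRNA UMIs) for 10 macrophage genes, highest in both BFP- populations, and from 136 to 206 for 12 T and NK cell genes. The share of hashtagged cells that failed the depth and mitochondrial limits was 3.32% to 13.5% and also highest in the BFP- populations. Each population is 1 sample, so no test was made between populations: intervals are exact 95% intervals for counting error only. Where the text sets all cells against each other, more RNA per cell and more cells of a type cannot be told apart, and levels are compared within a gene only.

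Of the receptor chains, Il7r and Il2ra were highest in BFP+RFP+ cells, and Crlf2 differed little. Crlf2 was at 20.4, 21.0, 19.4 and 17.3 CPM in the 4 populations, from 257 to 689 UMIs. No neighbours in the order of its 4 levels differed beyond counting error. Il7r stood at 348, 275, 254 and 240 CPM in the same order, and each step between neighbours was larger than counting error. Il2ra stood at 180, 120, 116 and 87.8 CPM. It was highest in the double-positive and lowest in the double-negative cells, while the populations with 1 reporter did not differ beyond counting error (log2 0.048, interval -0.032 to 0.13).

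The signal transducers showed small differences. Stat5a was at 80.1 CPM in BFP+RFP+ cells, 103 in BFP-RFP+, 90.1 in BFP+RFP- and 85.4 in BFP-RFP- cells, so that BFP-RFP+ cells stood above the rest. Stat5b, the close paralogue, was at 117, 119, 109 and 121 CPM, and only the lowest level, that of BFP+RFP- cells, differed from its neighbour beyond counting error.

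Among the feedback inhibitors, Socs3 was higher in RFP+ cells and Cish was highest in BFP-RFP+ cells, while the log2 ratios of Socs1 and Socs2 went no further than 0.36 and 0.23. Cish, which blocks STAT5 docking at receptors, was at 31.0, 40.5, 28.2 and 25.4 CPM, and only the highest level differed from its neighbour beyond counting error. Socs3, an inhibitor best known for IL-6 family receptors, was at 41.8 and 39.2 CPM in the RFP+ populations and at 27.1 and 24.8 in the RFP- populations. Over all kept cells both RFP+ levels of Socs3 lay above both RFP- levels, as they also did for Crlf2, Il7r, Il2ra, Cish and Pim1. How many of all genes share this order was not counted. Within either pair the levels of Socs3 did not differ beyond counting error. In clusters 1 to 6 Socs3 was at 41.4 CPM in BFP+RFP+ and 35.1 in BFP-RFP+ cells. It was there at 25.3 CPM in BFP+RFP- and 21.6 in BFP-RFP- cells, so in each pair higher in BFP+ cells. Socs1, an inhibitor of JAK kinases, was at 88.8, 69.0, 78.8 and 69.7 CPM and so highest in BFP+RFP+ cells. Socs2 was at 910, 775, 847 and 773 CPM, higher in the BFP+ cells. In clusters 1 to 6 its levels were closer together, at 949, 873, 887 and 843 CPM. Pim1, the target kinase, was at 448 and 404 CPM in RFP+ cells against 356 and 363 in RFP- cells.

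**Figure D1:**
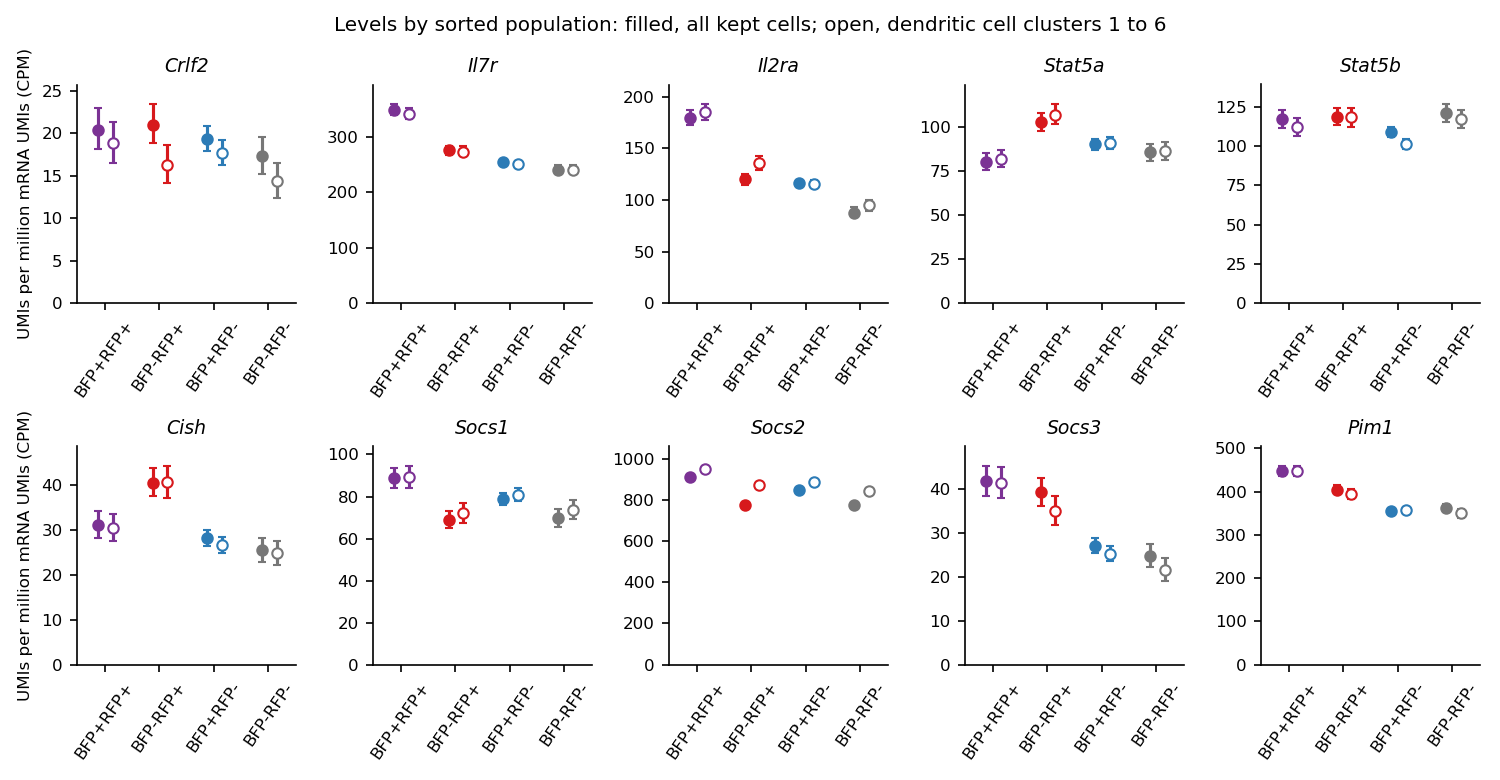
Level of each gene (y axis, CPM) in the 4 sorted populations (x axis), in all kept cells (filled) and in dendritic cell clusters 1 to 6 (open), with exact 95% Poisson intervals. Il2ra runs from 180 CPM in BFP+RFP+ to 87.8 in BFP-RFP- cells, and the RFP+ levels of Socs3 (41.8 and 39.2) lie above the RFP- levels (27.1 and 24.8).

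A gene was counted as past the fold where 2 populations differed by 1.5-fold or more, log2 0.58. At least 30 UMIs of the gene were asked for in the population with more of them. BFP+ against BFP- cells gave none of the 10 genes past the fold, either within RFP+ cells, where 12.5% of 10567 genes passed, or within RFP- cells, where 8.24% of 11297 did. Il2ra came nearest, with log2 ratios of 0.58 (0.50 to 0.67) within RFP+, just under the fold, and 0.40 (0.31 to 0.49) within RFP-. RFP+ against RFP- cells gave 2 genes past the fold in each comparison, all higher in RFP+ cells. Within BFP+ they were Il2ra at 0.63 (0.56 to 0.70) and Socs3 at 0.63 (0.48 to 0.78), with 11.6% of 11267 genes past the fold in either direction and 4.33% higher. Within BFP- they were Cish at 0.67 (0.49 to 0.86) and Socs3 at 0.66 (0.47 to 0.85), with 9.47% of 10661 genes past the fold and 5.83% higher. In clusters 1 to 6 alone the same genes passed: Il2ra (0.68) and Socs3 (0.71) within BFP+, where 11.7% of genes did and 4.59% were higher, and Cish (0.71) and Socs3 (0.70) within BFP-, where 7.75% did and 3.95% were higher. None passed there for BFP, where 9.97% of genes did within RFP+ and 6.54% within RFP-. The median log2 ratio of the 10 genes was 0.12 and 0.13 for BFP within RFP+ and RFP-, against -0.10 and -0.065 over all genes counted. It was 0.16 and 0.23 for RFP within BFP+ and BFP-, against -0.034 and -0.0061. These comparisons share populations and are not independent of each other.

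**Figure D2:**
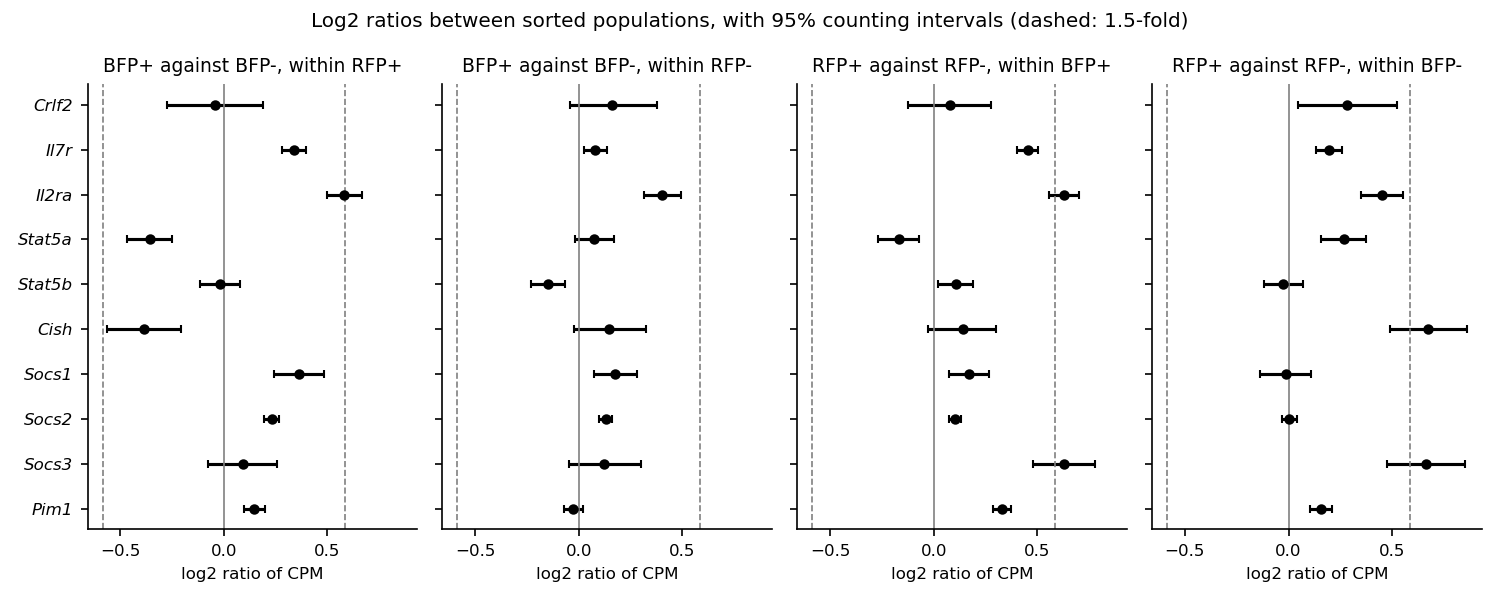
Log2 ratio of CPM (x axis) of each gene (y axis) in the 4 comparisons of sorted populations, with exact conditional 95% counting intervals and dashed lines at 1.5-fold. Socs3 passes the upper line in both comparisons of RFP (0.63 and 0.66), and no gene passes it in those of BFP.

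The differences of Il2ra and Socs3 became smaller when each of the 6 clusters was given its share of all cells as a fixed weight in every population, so that only differences within clusters count. With this weighting no gene was past the fold: Il2ra was at 0.28 and Socs3 at 0.059 for RFP within BFP+, and Cish at 0.25 and Socs3 at 0.31 for RFP within BFP-. Cish for RFP within BFP+ was larger in this weighting, at 0.48 against 0.14, and lay above 0 in 6 of 6 clusters (0.14 to 0.88), though beyond counting error in 1. In cluster 5 it rests on 14 BFP+RFP+ cells with 29 UMIs of Cish. For BFP within RFP+, Il2ra went from 0.58 to 0.15 and Cish from -0.38 to -0.0014. Socs1 was higher in BFP+RFP+ than in BFP-RFP+ cells by 0.36 before and 0.23 after the weighting.

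The clusters differed far more than the populations did. Their leading genes by fold were Myl7, Dkk2 and Tnfsf4 in cluster 1, Ccrl2, Flrt3 and Gpr65 in cluster 2, Shisa9 and Frmd5 in cluster 3, Clu and Ltc4s in cluster 4, Ifitm1 and Isg15 in cluster 5 and Egr1 and Ccl17 in cluster 6. Cluster 1 had the highest median CD8a tag count of the 6 (159 UMIs per cell), cluster 5 the highest CD11b (219) and cluster 6 the highest CD172a (254.5). Between the highest and the lowest of the 6 clusters, 9 of the 10 genes were past 1.5-fold, where 82.0% of 10172 genes were, and 4 were past 4-fold, where 15.1% were; the 4-fold mark was chosen after the values were seen. At a finer resolution, with 11 dendritic cell clusters, Il2ra passed it too (log2 2.10) and Socs3 was at log2 4.63. The share of all genes past either fold was not counted at that resolution. The 4 at the resolution used here were Socs3 (16.5-fold), Pim1 (6.17-fold), Cish (5.54-fold) and Stat5a (4.82-fold). Il2ra (3.57-fold), Il7r (2.99-fold), Socs1 (2.81-fold), Stat5b (2.61-fold) and Crlf2 (1.88-fold) followed, and Socs2 varied least (1.35-fold). The clusters were made from the same cells, so these values describe them and are no test.

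Cish and Stat5a split the 6 clusters in the same way. Cish was at 37.8, 48.1 and 49.5 CPM in clusters 1, 5 and 6 and at 8.92, 12.9 and 9.94 CPM in clusters 2, 3 and 4. Stat5a was at 96.4, 122 and 176 CPM in clusters 1, 5 and 6 and at 36.4, 82.2 and 53.6 in clusters 2, 3 and 4. The levels of both genes kept this order without overlap inside each of the 4 populations, as those of 1.63% of 10172 genes did. For Stat5a counting intervals overlapped in places. In BFP-RFP- cells it was at 89.3 CPM (78.1 to 102) in cluster 5 and 86.2 (75.1 to 98.6) in cluster 3. Clusters 5 and 6 held only 14 and 24 BFP+RFP+ cells. Over all cells the order of levels also held for Il2ra, Socs2 and Socs3, so for 5 of the 10 genes, against 7.46% of all genes. For Il2ra the intervals of clusters 6 and 2 overlapped. None of the 10 genes had the opposite order, against 15.8% of all genes and 1.67% in each of the populations. This grouping of clusters was chosen after the values were seen, and the clusters also differ in depth, with medians of 16768 to 17813 UMIs in clusters 1, 5 and 6 and 11322 to 13014 in the others. With every cell thinned to 5000 UMIs, 13.6%, 14.4% and 19.3% of cells in clusters 1, 5 and 6 had a UMI of Cish, against 3.79%, 6.56% and 3.87% in clusters 2, 3 and 4. Without thinning these shares were 30.4%, 29.8% and 38.3% against 10.6%, 12.5% and 8.33%.

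Socs3 kept this split over all cells, with clusters 3 and 4 far below cluster 2, and Pim1 did not keep it. Socs3 was at 45.5, 39.7 and 35.4 CPM in clusters 1, 5 and 6, at 19.2 in cluster 2 and at 2.71 and 3.27 in clusters 3 and 4, from 25 and 24 UMIs. Pim1 was highest in cluster 2 at 546 CPM, at 443, 383 and 475 in clusters 1, 5 and 6, and at 144 and 88.4 in clusters 3 and 4. Clusters 3 and 4 were thus the lowest for Socs3 and for Pim1. Cluster 2 was lowest for Stat5a, Stat5b and Cish but highest for Pim1, Il7r and Socs1. For Cish the intervals of clusters 2 and 4 overlapped, and cluster 2 was lowest in 2 of 4 populations. Pim1 was highest in cluster 2 and lowest in cluster 4 in 4 of 4 populations. Socs1 stood at 137 CPM in cluster 2, above 48.9 to 78.1 in the others, and highest there in 4 of 4 populations.

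The chains of the TSLP receptor, Crlf2 and Il7r, had other orders than Cish. Il2ra shared its split over all cells only narrowly, with overlapping intervals in cluster 6 (80.2 to 94.6 CPM) and cluster 2 (80.2 to 90.6). Within BFP-RFP+ and within BFP-RFP- cells Il2ra did not keep the split. Il7r was highest in cluster 2 at 350 CPM, then at 314 in cluster 1, 278 in cluster 3, 209 in cluster 4, 205 in cluster 5 and 117 in cluster 6. Cluster 6, with the highest Stat5a, had the lowest Il7r of the 6. Its Cish, at 49.5 CPM, had an interval overlapping that of cluster 5, at 48.1. The Il7r levels of clusters 4 and 5 also had overlapping intervals. Crlf2 ran only from 11.3 CPM in cluster 3 to 21.2 in cluster 4. Il2ra was highest in cluster 1 at 192 CPM, followed by cluster 5 at 142, with 53.8 to 87.2 in the others, and had its highest level in cluster 1 and its lowest in cluster 4 in 4 of 4 populations. Stat5b was highest in cluster 3 at 175 CPM and lowest in cluster 2 at 67.0, also in 4 of 4 populations.

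**Figure D3:**
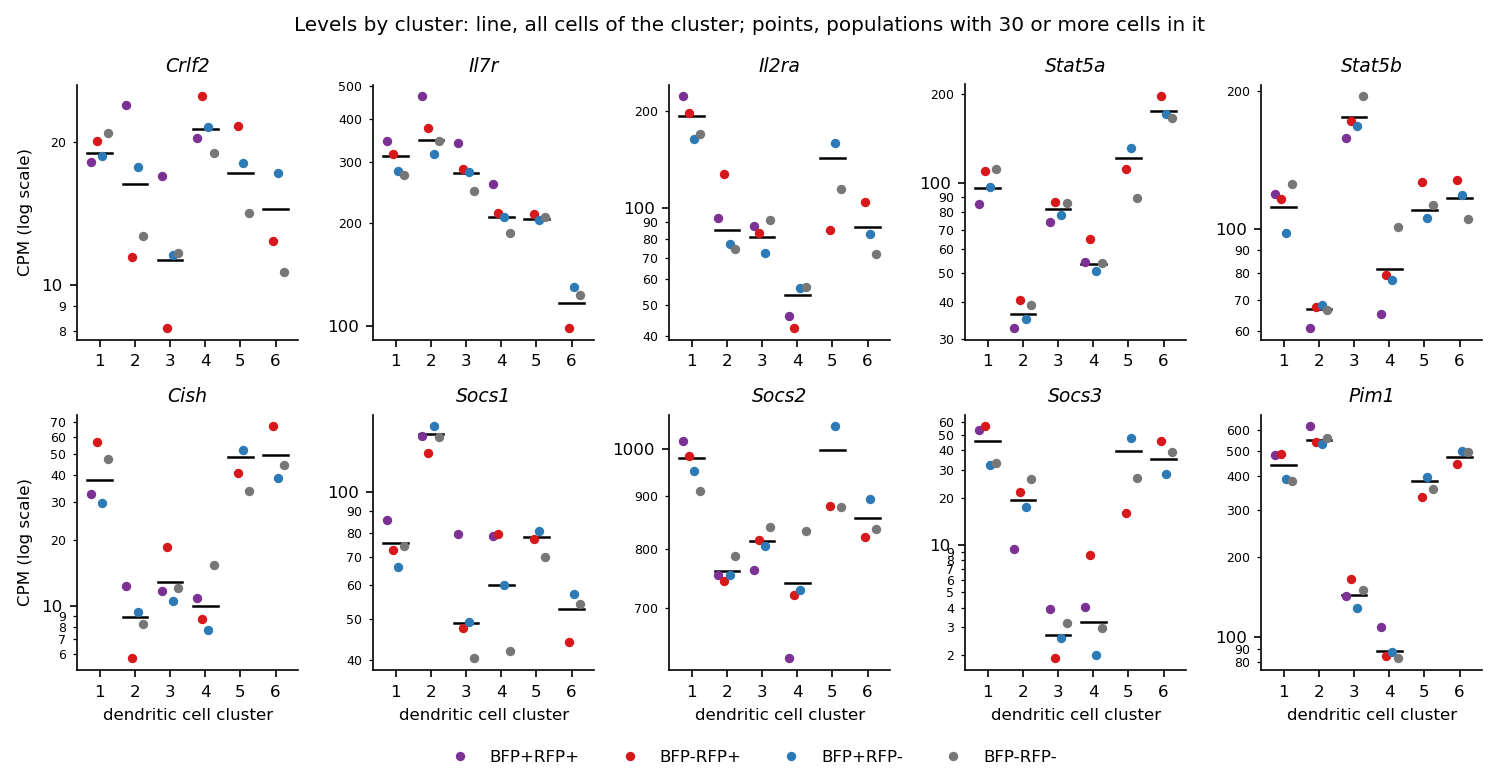
Level of each gene (y axis, CPM on a log scale) in dendritic cell clusters 1 to 6 (x axis), with a line for all cells of a cluster and a point for each sorted population with 30 or more cells in it. Cish lies at 37.8 to 49.5 CPM in clusters 1, 5 and 6 and at 8.92 to 12.9 in clusters 2 to 4, and Socs3 is lowest in clusters 3 and 4 (2.71 and 3.27).

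Inside cluster 1, which held the most cells, the populations still differed. Socs3 was at 53.7 CPM in BFP+RFP+ and 56.6 in BFP-RFP+ cells against 32.2 in BFP+RFP- and 33.4 in BFP-RFP- cells. Il2ra was at 222 and 196 CPM in the RFP+ cells against 163 and 169 in the RFP- cells. Cish was higher where BFP was absent, at 56.8 and 47.1 CPM in BFP-RFP+ and BFP-RFP- cells against 32.8 and 29.8 in BFP+RFP+ and BFP+RFP- cells. Socs3 and Il2ra thus went with RFP and Cish with the lack of BFP in cluster 1. In cluster 5 both orders were others: Cish was at 94.0 CPM in the 14 cells of BFP+RFP+ and 52.1 in those of BFP+RFP-, above 41.0 in BFP-RFP+ and 33.8 in BFP-RFP- cells, and beyond counting error at either RFP state. Socs3 was there at 15.9 CPM in 49 BFP-RFP+ cells, 47.6 in BFP+RFP- and 26.8 in BFP-RFP- cells.

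Cells outside clusters 1 to 6 held part of the receptor signal. Cluster 7, T and NK cell-like with 253 cells, had the highest Il7r, 434 CPM, and the highest Stat5b, 231 CPM. Crlf2 was highest in cluster 9, B cell-like with 87 cells, at 54.5 CPM from 38 UMIs, and in cluster 8 at 48.2 CPM. Cluster 8, with 127 cells, led by C1qb and Tgfbi and with markers of macrophages and of type 2 dendritic cells, was left unnamed; it also had the highest Socs3 of all clusters, 72.2 CPM. Clusters 7, 8 and 9 held genes of migratory dendritic cells as well: Fscn1 was at 38.1%, 34.8% and 32.7% of its level in clusters 1 to 6, and Socs2 at 39.6%, 41.3% and 29.7%. Il7r in cluster 9 was at 17.0%. Cluster 10, macrophage-like with 39 cells, had 33 UMIs of Il7r and 5 of Crlf2, and cluster 11, with 17 cells and left unnamed, had 29 and 4. How much of each level in these clusters comes from RNA of other cells was not tested. Without these cells Crlf2 in BFP-RFP+ cells went from 21.0 to 16.3 CPM, and its log2 ratio for BFP within RFP+ from -0.040 to 0.21 (-0.061 to 0.48).

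By the labels, the CD172a and CD301b antibodies come from the TotalSeq-C and TotalSeq-B series and the protocol from TotalSeq-A; how well these tags were captured is not known beyond the check with their genes. By antibody tag, cells were cut into tertiles of the tag's UMIs per cell. As a check of the tags in all cells, Cd8a was at 55.4 against 2.03 CPM, Sirpa (CD172a) at 138 against 32.3 and Mgl2 (CD301b) at 35.7 against 5.25 in the upper and lower tertile of their own tag. Itgam (CD11b) was at 4.10 CPM in the upper tertile and not detected in the lower. Cluster 8 held 109 UMIs of Itgam and 1003 of Mgl2, while each of clusters 1 to 6 had 2 to 6 UMIs of Itgam. Among clusters 1 to 6, Cd8a and Sirpa were highest where their tags were highest, and Itgam and Mgl2 were not. Cluster 5 had Itgam at 0.273 CPM against 0.486 in cluster 2, and cluster 6 had Mgl2 at 4.06 against 8.85 in cluster 1. The check thus says little about the CD11b and CD301b tags inside clusters 1 to 6. The upper tertile of each tag was also deeper, with medians of 16789 to 17544 UMIs per cell against 11928 to 12756. Of the 10 genes, 2 were past the fold between the tertiles of the CD11b tag, where 18.6% of 11366 genes were: Cish, at 37.5 against 19.3 CPM (log2 0.96, 0.80 to 1.12), and Socs3, at 38.9 against 21.5 (0.86, 0.70 to 1.01). Higher by that fold were 8.10% of genes. With tag UMIs per 1000 mRNA UMIs, Cish was short of the fold (0.53) and Socs3 just past it (0.59). In clusters 1 to 6 alone Cish was at 17.9, 30.2 and 36.7 CPM in the lower, middle and upper tertile and Socs3 at 19.1, 30.3 and 35.4, where 13.3% of genes were past the fold and 7.47% higher. Summed macrophage markers were at 338 CPM in the upper and 92.5 in the lower tertile of CD11b in all cells, and at 94.7 and 70.2 in clusters 1 to 6; their part in these differences was not tested. Between the tertiles of the CD8a tag 1 gene was past the fold, where 16.0% of genes were and 5.27% were higher: Socs3, at 39.8 against 26.4 CPM (0.59, 0.45 to 0.73). It was short of the fold with a hashtag share of 95% (0.57), without the 5% largest cells (0.55) and with tag UMIs per 1000 mRNA UMIs (0.41). In clusters 1 to 6 it was at 37.9 against 22.1 CPM, where 15.2% of genes were past the fold and 6.29% higher. None was past it for the CD172a tag (19.6% of genes) or the CD301b tag (12.7%), nor in clusters 1 to 6, where 14.5% and 9.84% of genes were. Il7r was lower in the upper tertile of CD172a, at 230 against 336 CPM, and Stat5a was higher, at 106 against 73.1, both short of the fold. With so many genes past the fold, these counts show nothing particular to the 10 genes.

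The values of Socs3 by tag are also given for each population of clusters 1 to 6. In BFP+RFP+ cells Socs3 was at 45.6 CPM in the upper and 10.0 in the lower tertile of the CD8a tag (log2 2.13, 1.37 to 3.16), and in BFP-RFP+ cells at 50.7 and 18.4. In BFP+RFP- cells it was at 28.3 and 27.5 CPM and in BFP-RFP- cells at 25.7 and 15.2. Between the tertiles of the CD11b tag, Socs3 was at 36.5 and 35.9 CPM in BFP+RFP+ cells and at 35.1 and 25.9 in BFP-RFP+ cells. It was at 36.6 and 10.4 in BFP+RFP- and at 32.2 and 6.03 in BFP-RFP- cells. The ratio by CD8a was thus largest in BFP+RFP+ and that by CD11b in BFP-RFP- cells. Their lower tertiles held only 100 and 222 cells, with 415 and 202 UMIs of Socs3 over both tertiles. Cish was higher in the upper tertile of CD11b in 4 of 4 populations, by log2 0.71 to 1.28. Whether these relations differ between populations was not tested, since each is 1 sample.

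**Figure D4:**
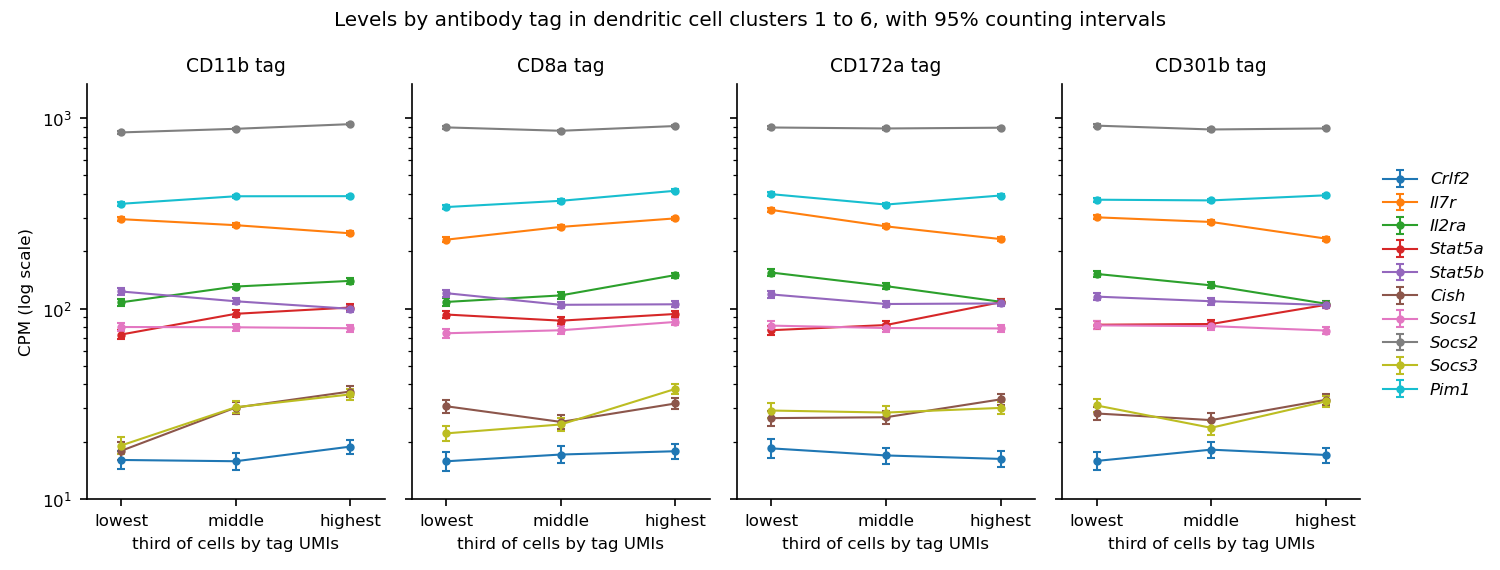
Level of each gene (y axis, CPM on a log scale) in the lowest, middle and highest tertile of cells by the UMIs of 4 antibody tags (x axis), in dendritic cell clusters 1 to 6 with 95% Poisson intervals. Cish and Socs3 lie at 17.9 and 19.1 CPM in the lowest and at 36.7 and 35.4 in the highest tertile of CD11b, while Il7r runs from 329 to 232 across CD172a.

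The TSLP receptor needs Crlf2 and Il7r in the same cell. Of 4236 cells of clusters 1 to 6 thinned to 5000 UMIs, with 264 shallower cells left out, 7.84% had a UMI of Crlf2, 63.7% of Il7r and 4.89% of both. The product of the separate shares is 4.99%, so the chains were found together about as often as their shares give. In the 4 populations the share with both was 6.83% (5.11 to 8.91), 4.55% (3.19 to 6.27), 4.86% (3.93 to 5.92) and 3.57% (2.42 to 5.06), by Clopper-Pearson intervals. Double-positive cells had the highest share and double-negative cells the lowest, and the intervals of neighbours overlapped. In the 45 B cell-like cells of that depth, a type not known for Il7r once mature, 8.89% had a UMI of Il7r. Crlf2 was sparse at this depth, and a cell without a UMI may still express it; at 10000 UMIs the share with both was 12.3%.

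Between cells with both chains and cells with neither, the response genes did not differ beyond counting error. Over 207 and 1412 such cells the log2 ratio was 0.068 for Cish (-0.54 to 0.59), -0.17 for Socs3 (-0.86 to 0.41), 0.15 for Socs1 (-0.22 to 0.48), -0.026 for Socs2 (-0.13 to 0.074) and -0.15 for Pim1 (-0.32 to 0.013). The intervals for Cish and Socs3 are wide enough to hold a difference of 1.5-fold. Stat5a was lower in the cells with both, at -0.45 (-0.82 to -0.12). None of the 8 genes outside the receptor was past the fold, where 14.3% of 8605 genes were. By Crlf2 alone, Socs3 was at 36.1 CPM in cells with a UMI and 26.3 in cells without (0.47, 0.049 to 0.85), and no gene was past the fold, where 13.3% of genes were. By Il7r alone, Cish was at 24.2 and 29.0 CPM (-0.26, -0.51 to -0.0079), and again none was past it, where 5.65% of genes were.

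Over clusters 1 to 6, Cish, Socs3 and Stat5a were higher in the same cells. The 420 cells with a UMI of Cish had more Socs3 than the 3816 without, at 60.0 against 23.4 CPM (log2 1.36, 1.06 to 1.65), and more Stat5a (0.95, 0.76 to 1.12); 2 of the other 9 genes were thus past the fold, where 20.5% of 10240 genes were and 7.42% were higher. The 410 cells with a UMI of Socs3 had more Cish (1.29, 0.98 to 1.59), Pim1 (0.82, 0.73 to 0.90), Il2ra (0.73, 0.57 to 0.89) and Stat5a (0.59, 0.39 to 0.78), so 4 of the other 9 genes were past the fold, where 22.0% of 10244 genes were and 6.79% were higher. Inside cluster 1 alone Cish and Socs3 still went together. Socs3 was higher by 0.97 (0.56 to 1.35) in cells with Cish, and Cish by 0.93 (0.47 to 1.35) in cells with Socs3. The share of all genes past the fold was not counted inside cluster 1, so whether these values stand apart there is not known. Pim1 was higher by 0.79 in the cells of cluster 1 with Socs3, and Stat5b was lower by log2 -0.69 there. Cells with a UMI of Il2ra had more Socs3 (0.81, 0.57 to 1.06) over clusters 1 to 6, where 7.13% of 9887 genes were past the fold and 3.32% higher, and by 0.28 (-0.055 to 0.62) in cluster 1.

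**Figure D5:**
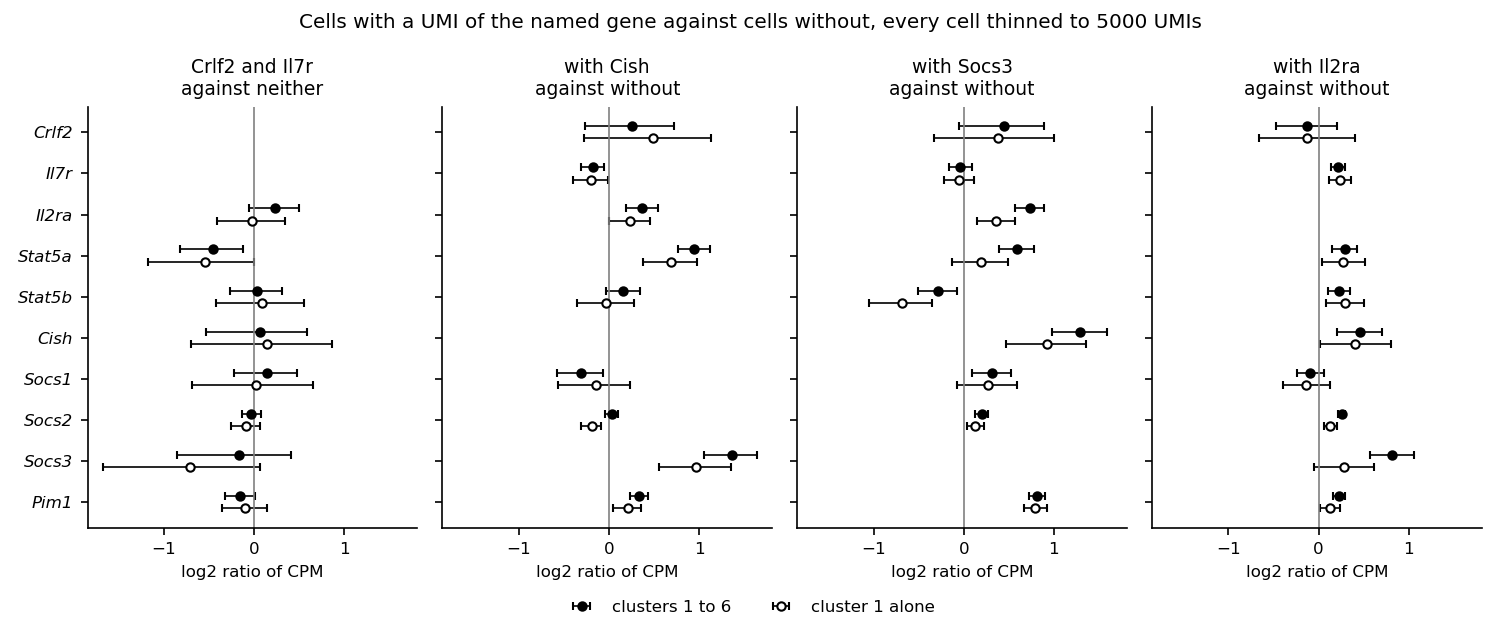
Log2 ratio of CPM (x axis) of each gene (y axis) between cells with and without a UMI of the gene named above each panel, every cell thinned to 5000 UMIs, in clusters 1 to 6 (filled) and cluster 1 alone (open), with 95% counting intervals. Socs3 is higher by 1.36 in cells with Cish and Cish by 1.29 in cells with Socs3, while the ratios of both sit near 0 between cells with both receptor chains and cells with neither.

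Genes of like pattern were named by Pearson's r of log2(CPM + 10) over the 22 sums of population and cluster with 30 or more cells, among 7635 genes with 500 or more UMIs. The sums share 1 capture and differ in depth, and no p-value is given. For Il7r they were Tmod2 (r = 0.93), Fyb, Rab27a, Srrm1 and Igsf3. For Il2ra they were Cdk6 (0.91), Sh3rf1, Runx2, Arhgap10 and Slc8a1. For Cish they were Arpc2 (0.96), Orai1, Anxa2, Actb and Slc25a1. For Crlf2, whose levels varied little, they were Tomm5 (0.84), Micos13, Dctn3, Atp5h and Sumo2. Among the 10 genes themselves Cish went with Stat5a at r = 0.86 and Socs3 with Pim1 at 0.80, while Il7r ran against Stat5a at -0.72.

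The other pathway genes are given by list. Over all genes, 12.5%, 8.24%, 11.6% and 9.47% were past the fold in the 4 comparisons, so a short list with none or 1 past it does not stand apart. None of 5 other STAT genes passed it in any of the 4 comparisons; Stat4 was at 1078, 772, 862 and 742 CPM in the 4 populations. Of 11 receptor partners and kinases, Il9r, the receptor of IL-9, a cytokine that also signals through STAT5, was past it in 4 of 4 comparisons, with 60.0, 34.1, 31.2 and 20.2 CPM in the same order. Il2rb, at 3.39, 5.84, 5.48 and 4.03 CPM, was lower in BFP+RFP+ cells in both of theirs. Il2rb is also a T and NK cell marker, a list summing to 136, 206, 192 and 139 CPM in the populations, and in clusters 1 to 6 no receptor partner or kinase was lower by the fold among the 10 with enough UMIs. Of 10 other feedback genes, Ptpn1, a phosphatase of JAK kinases, was higher in RFP+ cells in both comparisons. It was at 487 and 397 CPM in RFP+ against 296 and 257 in RFP- cells (log2 0.72 and 0.63). Sh2b3 was lower by the fold for RFP within BFP+ (log2 -0.68), and also passed there in clusters 1 to 6. Of 14 other STAT5 target genes, Id1, a regulator of differentiation, was higher in RFP+ cells in both, at 15.4 and 20.2 CPM against 9.86 and 8.20 (0.65 and 1.30). Ccnd2, a cyclin, was past the fold in both comparisons of BFP+RFP+ cells, at 253, 165, 149 and 121 CPM. Myc was past it in both comparisons of BFP-RFP- cells, which were higher, at 2.90, 2.60, 2.70 and 4.17 CPM from 41 to 96 UMIs. Bcl6 was lower by the fold for RFP within BFP- (log2 -0.60), and Bcl2 was higher for BFP within RFP- (0.70). In clusters 1 to 6 neither Myc nor Bcl2 passed in these comparisons, and Bcl2 passed for RFP in both. Of 6 genes linked to TSLP in dendritic cells, Tnfsf4, on which the BFP sort rests, was past the fold in all 4, by 2.53 and 2.36 for BFP and 1.58 and 1.42 for RFP. Ccl17, a chemokine that TSLP-treated dendritic cells are known for, was lower in BFP+RFP+ cells, at 256 CPM against 468, 399 and 441. Of the ligands, Tslp had 4 to 23 UMIs per population. Il3 and Il9 had none. A floor of 3 UMIs would be 0.212 CPM in the shallowest population. Il2 was lower by the fold for BFP within RFP- (log2 -0.85), from 32 UMIs in BFP+RFP- and 24 in BFP-RFP- cells. Its higher level, that of BFP-RFP- cells, thus rests on the 24 UMIs. In clusters 1 to 6 no ligand passed in the 4 comparisons.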

How the data were processed

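mRNA, antibody tags and hashtags were counted in 3 libraries of 1 capture (10x 3' v3.1). The deposited values are raw UMI counts per gene and barcode, which per the file headers came from Cell Ranger 7.0.0. GRCm39 is the build in the submitters' processing notes; no source used here gives the settings for cell calling or introns. Antibody and hashtag counts entered no mRNA total. Summed counts were scaled to CPM, and ratios were taken on the log2 scale after adding 0.5 UMI. Levels have exact Poisson, ratios exact conditional binomial and shares Clopper-Pearson 95% intervals, which cover counting error only. Each population is 1 sample, so no test was made. Barcodes with mixed hashtags were left out: 699 (11.5%) were under the hashtag share, and if all were doublets about 294 doublets of a single population would remain; no doublet caller was run. Clusters came from 2000 variable genes, 30 principal components, 15 neighbours and Leiden (leidenalg 0.10.2); a cluster counted as dendritic where each of 9 migratory markers was in 80% or more of its cells and fewer than 5 markers of T and NK cells, B cells or macrophages were in 20% or more. Named genes were all 10 members and pathway genes past the fold in both comparisons of a reporter. The 5 genes most like Crlf2, Il7r, Il2ra and Cish were named too. Stat4, Il2rb, Sh2b3, Ccnd2, Myc, Bcl6, Bcl2, Ccl17, Tslp, Il2, Il3 and Il9 were named after their values were seen. The members and lists were chosen with earlier results of these data known. Promoters are RefSeq windows on GRCm38.p6, searched for 1 motif. Alternatives changed the hashtag share (95%), depth (3000 UMIs), mitochondrial limit (5%), clusters used, cell weighting, scaling (TMM, edgeR 4.0.16), the count minimum, the largest cells, the weights and resolution of clusters, the depth of thinning and the tag scale. The ratio code was tested on simulated data.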

Additional observations from a re-analysis of the deposited data

Results flagged for a closer look

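Stat5a, Cish and Pim1 had BFP+ against BFP- log2 ratios beyond counting error in RFP+ cells and of the other sign in RFP- cells, where all 3 lay within counting error of 0, so an opposite direction is not shown. Stat5a was at -0.36 within RFP+ and 0.076 within RFP-, a difference of -0.43 (counting interval -0.58 to -0.29). Cish was at -0.38 and 0.15, a difference of -0.53 (-0.78 to -0.29). Pim1 was at 0.15 and -0.026, a difference of 0.17 (0.11 to 0.24). Crlf2 was also of either sign, at -0.040 and 0.16, with both ratios within counting error of 0. With 1 sample per population the difference was not tested, and the intervals hold counting error only. With clusters weighted alike in all populations the ratios were -0.070 and -0.0054 for Stat5a, -0.0014 and -0.22 for Cish and 0.043 and -0.0069 for Pim1.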

How the results depend on the processing

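No paired analysis was possible because all 4 populations came from 1 pool and share no replicate numbers. The number of genes past 1.5-fold for BFP within RFP+ went from 0 to 1 (Il2ra) with a hashtag share of 95%, 3000 UMIs, a mitochondrial limit of 5% or TMM scaling, since its value lies next to the fold. For RFP the count went from 2 to 0 within BFP+ and within BFP- with clusters weighted alike in all populations, and to 1 (Cish) within BFP- with a hashtag share of 95%. For the CD11b tag it went from 2 to 1 (Socs3) with tag UMIs per 1000 mRNA UMIs. For the CD8a tag it went from 1 to 0 with a hashtag share of 95%, without the 5% largest cells or with tag UMIs per 1000 mRNA UMIs, and to 2 with TMM scaling. For the CD172a tag it went from 0 to 3 with a hashtag share of 95%, to 2 without the largest cells and to 1 with the mean over cells, TMM or tag UMIs per 1000. For the CD301b tag it went from 0 to 1 without the largest cells or with tag UMIs per 1000. The share of all genes past the fold was not counted under the changed settings named here. At the main settings it was 19.6% for the CD172a tag and 12.7% for the CD301b tag, so these counts show nothing particular to the 10 genes. The share of cells with both receptor chains went from 4.89% to 12.3% at 10000 UMIs, where more UMIs were kept per cell. For the other changes the cause was not tested. TMM moved all ratios by 0.0029 to 0.11 on the log2 scale. At a Leiden resolution of 1 in place of 0.5, 9 of the 10 genes again differed by 1.5-fold or more between clusters. The share of all genes that did so was not counted at that resolution. No value past the fold changed sign under these settings. Depth limits Crlf2 most, with 257 UMIs in BFP-RFP- cells.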
